A study of Homo sapiens with 12 samples.

Results

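The oxidative phosphorylation genes were examined in cells given as MDA-MB-231, an established line from a human breast carcinoma, grown under 6 culture conditions. The genes were chosen by symbol alone. Every symbol of the array that begins with NDUFA, NDUFB, NDUFC, NDUFS, NDUFV, UQCR, COX4, COX5, COX6, COX7, COX8 or ATP5 was taken, together with SDHA, SDHB, SDHC and SDHD, and each gene was read on its brightest probe. Of 96 symbols with these beginnings or beginning with SDH, 2 pseudogenes and 5 other SDH symbols were set aside, which left 89 of the 31334 gene symbols on the array. Classed by name, 39 of them go with complex I (NDUFA4, now counted with complex IV, is kept among these), 4 to complex II, 8 to complex III, 17 to complex IV and 15 to complex V, 3 are assembly factors of complex I, and 3 carry the prefix without being subunits. The first 5 conditions were MEM with 0.1% FBS at 90% confluence (FBS0.1), MEM with 10% horse serum at 90% confluence (HS), DMEM with 10% FBS at 90% confluence (DMEM), RPMI-1640 with 10% FBS at 90% confluence (RPMI-1640), and MEM with 10% FBS at 50% confluence (Con50). Each of the 5 was compared with MEM containing 10% FBS at 90% confluence (MEM), and DMEM was compared with RPMI-1640. Each condition had 2 arrays, all given as the same cell line. The labels do not say whether the 2 arrays of a condition came from separate cultures, so p-values measure only the spread between such arrays.

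Oxidative phosphorylation is the work of the inner mitochondrial membrane. Complex I takes electrons from NADH and complex II takes them from succinate, ubiquinone carries them to complex III, cytochrome c carries them to complex IV, where oxygen is reduced, and complex V uses the proton gradient built along the way to make ATP. Most subunits are encoded in the nucleus and a few, not among the genes taken here, in mitochondrial DNA. Cancer cells in culture can make ATP by glycolysis as well, and the balance is known to shift with the supply of glucose.

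Signals are given on the log2 scale of the deposited table, which the authors had quantile-normalized between the 12 arrays, and a difference is the difference between 2 condition means on that scale. Probes for olfactory receptors, 463 in number, stood for background, set on each array at their 95th percentile, and this limit lay between 6.90 and 6.99. Of the 89 genes, 76 were above background on all 12 arrays, 6 on some and 7 on none. Across all probes, the arrays of 1 condition correlated at 0.987 to 0.996, arrays of different conditions other than MEM at 0.964 to 0.991, and the MEM arrays with the rest only at 0.914 to 0.940. The 2 MEM arrays therefore stood apart, and counts are given with and without them. Of 6 genes known to be expressed in MDA-MB-231, VIM, CD44, AXL, MSN and CAV1 were above background on all 12 arrays, while EGFR was so on 4. Another 9 genes had been listed as low in this line, a choice that was not checked here. Of these, PGR, CDH1 and FOXA1 were above background on 0 of 12 arrays, ESR1 on 1, and EPCAM, GATA3 and KRT8 on 3. ERBB2 and KRT18 were so on all 12. KRT8 averaged 6.58 to 6.89 in the other conditions, against 10.04 in MEM. Of 10 genes of the melanocyte lineage, SOX10, MITF, DCT and EDNRB were above background on all 12 arrays, 4 others on 1 to 9 arrays, and TYRP1 and S100B on 0. The summed linear signal of the 10 genes was 8526 to 10598 in FBS0.1, 2709 to 3074 in HS, 5077 to 5626 in DMEM, 4670 to 4688 in RPMI-1640, 3165 to 3288 in Con50 and 1942 to 2099 in MEM. The part of these markers, and of whatever sets the MEM arrays apart, in the differences below was not tested. Whether all 12 arrays hold the same cells was not tested either.

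Promoters are shown first, for genes whose differences are described further on. RefSeq sequences of the GRCh38.p14 build, from 250 bases before to 50 bases after the gene start, were matched for 73 of the 89 genes. The windows were searched on both strands for short motifs of factors known to act on respiratory genes. The motif of NRF1, GCGC and TGCGC with any 1 base between them, was found in 15 of the 73 windows (20.5%), against 6.28% of all 27305 windows. The motif of GABPA, CCGGAAG, was found in 20 of 73 (27.4%), against 10.7% of all windows, and that of YY1, AANATGGC, in 21 of 73 (28.8%), against 6.82%. The ERR motif, CAAGGTCA, was found in 4 (5.48%, against 1.33%), the SP1 motif, GGGCGG, in 42 (57.5%, against 44.6%), and the E-box, CACGTG, in 7 (9.59%, against 7.43%). A match is a run of letters and does not show that a factor binds there. The 150 bases before the start of 6 genes follow, with every motif match in capitals. COX4I1 and the gene the array calls COX4NB lie head to head, and the 150 bases between their starts are the upstream sequence of both. The other 5 genes were chosen for their differences, NDUFA11 and NDUFA3 called lower and COX5B and ATP5J called higher than in MEM under all 5 conditions, and UQCRH called higher in DMEM than in RPMI-1640. Directions of the called genes were counted for the NRF1 and GABPA motifs alone, and not for YY1, ERR, SP1 or the E-box. Of the 15 genes with an NRF1 match, 2 (NDUFA11 and NDUFA3) were called lower and 2 (ATP5I and ATP5O) higher in all 5 comparisons with MEM. Of the 20 with a GABPA match, 4 (COX4NB, COX6A1, NDUFS1 and NDUFS3) were called lower in all 5 and 3 (ATP5I, ATP5J and COX5B) higher, while of all 73 genes 13 were called lower in all 5 and 6 higher.
COX4I1 (chr16:85799545-85799694, + strand): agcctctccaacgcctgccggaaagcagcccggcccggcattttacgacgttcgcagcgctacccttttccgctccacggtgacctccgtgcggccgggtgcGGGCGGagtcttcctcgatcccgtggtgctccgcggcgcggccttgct
NDUFA11 (chr19:5903791-5903940, - strand): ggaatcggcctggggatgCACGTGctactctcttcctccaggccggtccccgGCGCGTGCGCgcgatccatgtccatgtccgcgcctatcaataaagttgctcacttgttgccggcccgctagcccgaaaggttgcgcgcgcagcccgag
NDUFA3 (chr19:54102705-54102854, + strand): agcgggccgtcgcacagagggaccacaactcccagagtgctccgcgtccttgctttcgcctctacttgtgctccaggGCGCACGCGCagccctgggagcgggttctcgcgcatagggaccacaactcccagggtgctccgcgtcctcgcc
COX5B (chr2:97645912-97646061, + strand): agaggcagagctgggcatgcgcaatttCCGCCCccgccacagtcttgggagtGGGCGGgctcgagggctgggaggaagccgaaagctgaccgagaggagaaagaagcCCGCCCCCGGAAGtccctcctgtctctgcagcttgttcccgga
ATP5J (chr21:25735055-25735204, - strand): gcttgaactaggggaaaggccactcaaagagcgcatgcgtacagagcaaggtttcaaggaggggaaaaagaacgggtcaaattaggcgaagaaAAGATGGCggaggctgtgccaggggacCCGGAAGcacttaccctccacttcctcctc
UQCRH (chr1:46303548-46303697, + strand): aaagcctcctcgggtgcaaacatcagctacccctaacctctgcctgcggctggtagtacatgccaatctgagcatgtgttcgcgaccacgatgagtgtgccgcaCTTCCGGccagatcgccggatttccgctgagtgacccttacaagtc
In these stretches the capitals mark 1 SP1 match in COX4I1 and an E-box followed by an NRF1 match in NDUFA11. In NDUFA3 they mark 1 NRF1 match on the opposite strand. In COX5B they mark 3 SP1 matches, the first and last on the opposite strand, and the last runs directly into a GABPA match. In ATP5J they mark a YY1 match followed by a GABPA match, and in UQCRH 1 GABPA match on the opposite strand.

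Genes of oxidative phosphorylation were called in both directions in each comparison with MEM. A gene was called where its adjusted p was under 0.05 in limma, fitted once to all 12 arrays with the correction over all 47231 probes. In FBS0.1, 16 of the 89 genes were higher and 29 lower than in MEM, while 10.9% of all probes were higher and 11.5% lower, and 27.7% and 26% of the 17101 probes with a mean above background. In HS, 18 genes were higher and 24 lower, against 10.4% and 11.5% of all probes and 26.6% and 25.4% of those above background. In DMEM, 21 genes were higher and 18 lower, against 10% and 10.9% of all probes and 25.6% and 23.9% of those above background. As shares of the 89 genes, these were 18.0% higher and 32.6% lower in FBS0.1, 20.2% and 27.0% in HS, and 23.6% and 20.2% in DMEM. In RPMI-1640, 14 genes were higher and 31 lower, against 9.42% and 9.82% of all probes and 24.4% and 22% of those above background. In Con50, 9 genes were higher and 33 lower, against 9.42% and 10.3% of all probes and 24.8% and 22.9% of those above background. In shares of the 89 genes, RPMI-1640 had 15.7% higher and 34.8% lower, while Con50 had 10.1% higher and 37.1% lower. The median difference of the 89 genes was -0.04 in FBS0.1, 0.00 in HS, 0.01 in DMEM, -0.18 in RPMI-1640 and -0.15 in Con50, with medians between 0.02 and 0.04 over the probes above background. Leaving out 1 array moved 2 of these counts by more than 1.5 times, the 18 lower genes in DMEM to 10 without MEM array 2 and 11 without DMEM array 2, and the 14 higher genes in RPMI-1640 to 9 without MEM array 1.

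The 5 comparisons share the 2 MEM arrays, so their counts are not independent of each other. Over all 6 conditions, an F test called 66 of the 89 genes (74.2%), beside 30.1% of all probes and 74.1% of those above background. Without the MEM arrays, it called 46 genes over the other 5 conditions (51.7%), beside 19.9% of all probes and 52.2% of those above background. Of the 78 genes with a mean above background, it called 65 over 6 conditions (83.3%) and 46 over 5 (59.0%), to be read beside the shares of the probes above background. The 46 genes became 29 without DMEM array 2. Con50 was also used in place of MEM, an alternative chosen after seeing the data, and most calls were then on the higher side. Against Con50, 16 genes were higher and 2 lower in FBS0.1 (all probes 5.43% and 5.39%), 15 higher and 0 lower in HS (4.55% and 4.93%), and 25 higher and 1 lower in DMEM (4.09% and 4.26%). As shares of the 89 genes, these were 18.0% and 2.25%, 16.9% and 0%, and 28.1% and 1.12%. Of the probes above background, 14.1% were higher and 14.4% lower in FBS0.1, 11.5% and 13% in HS, and 10.7% and 11.2% in DMEM. At an unadjusted p under 0.05 in limma, 27 genes were higher and 5 lower in HS than in Con50. In RPMI-1640, 0 genes were higher and 0 lower than in Con50 (0.121% and 0.0995% of all probes). At an unadjusted p under 0.05, 4 were higher and 1 lower in RPMI-1640. The share of all probes at the unadjusted threshold was not counted for either pair. Con50 differs from FBS0.1, HS, DMEM and RPMI-1640 in confluence too, so these pairs do not vary 1 factor alone.

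**Figure D1:**
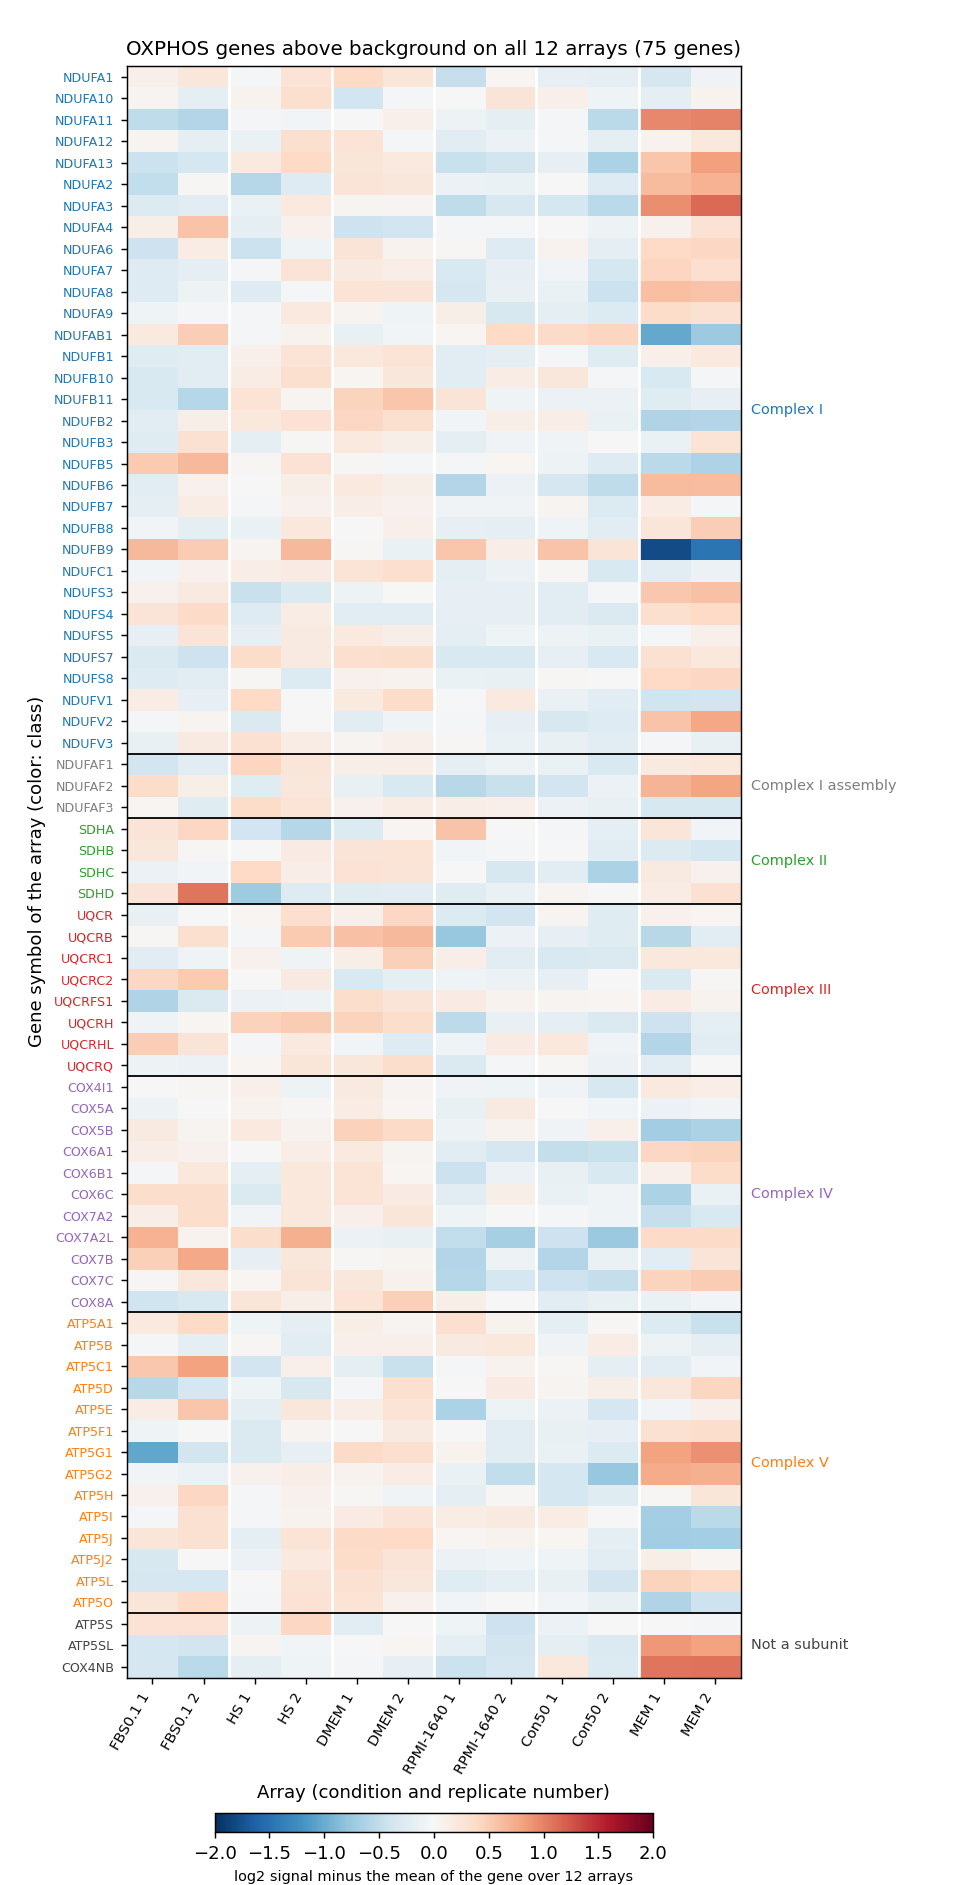
Heat map of 75 of the 76 genes above background on all 12 arrays, grouped by complex, with the arrays in columns (2 per condition) and the log2 signal minus the mean of each gene over the 12 arrays as color. The 2 MEM columns at the right hold the strongest colors in both directions, red for NDUFA11, NDUFA3 and COX4NB and blue for NDUFB9 and NDUFAB1.

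Which condition had the highest mean was counted for the 78 genes with a mean above background. DMEM was highest for 23 of them (29.5%, against 14.2% of the probes above background) and lowest for 5 (6.41%, against 13.3%). RPMI-1640 was highest for 1 gene (1.28%, against 8.47%) and lowest for 17 (21.8%, against 6.93%). Con50 was likewise highest for 1 gene (1.28%, against 13.1%) and lowest for 17 (21.8%, against 12.4%). MEM was highest for 30 (38.5%, against 29.1%) and lowest for 18 (23.1%, against 32.5%), and FBS0.1 was highest for 16 (20.5%, against 19.3%) and lowest for 15 (19.2%, against 19.7%). HS was highest for 7 (8.97%, against 15.8%) and lowest for 6 (7.69%, against 15.2%). The difference between the 2 arrays of a condition, at the median of these genes, was 0.15 in FBS0.1, 0.23 in HS, 0.10 in DMEM, 0.15 in RPMI-1640, 0.16 in Con50 and 0.10 in MEM.

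**Figure D2:**
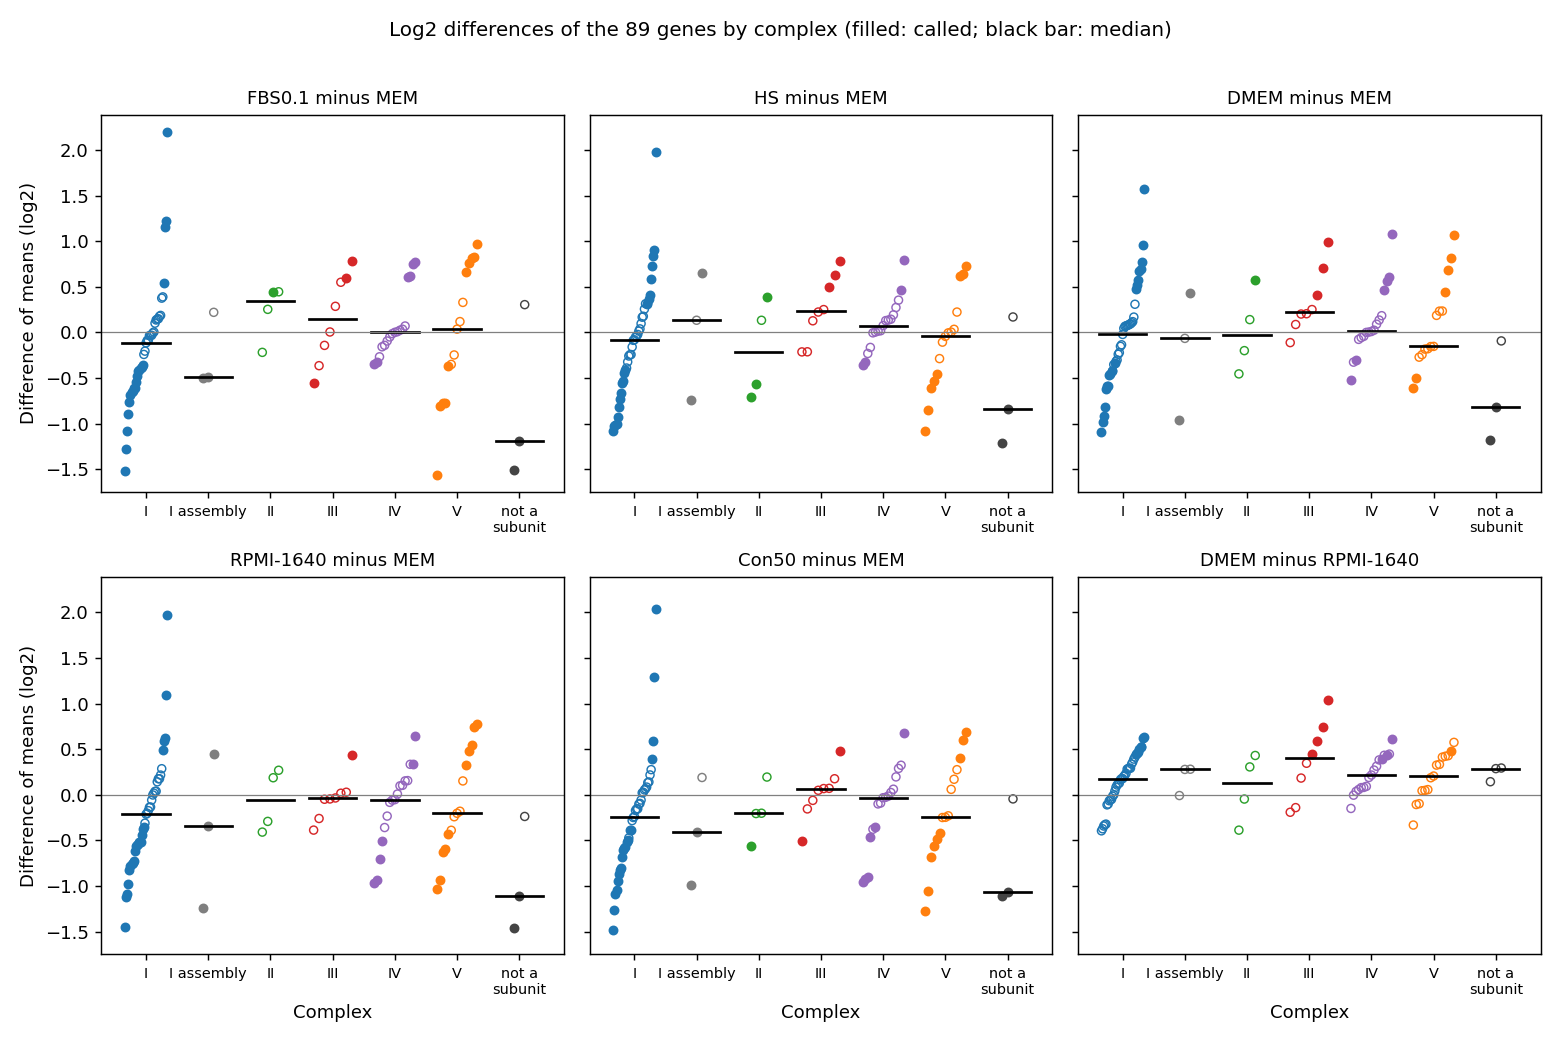
Differences between condition means on the log2 scale for the 89 genes in the 6 comparisons, with 1 point per gene, genes arranged by complex along the x axis, filled points for called genes and a black bar at the median of each group. Called genes lie on both sides of 0 in the 5 comparisons with MEM, and on the positive side alone in DMEM minus RPMI-1640, where the 8 genes of complex III have a median of 0.40.

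Complex I, the NADH dehydrogenase, held the largest difference above MEM and 2 of the largest below it, those of NDUFB9, NDUFA11 and NDUFA3. Of its 39 genes, 4 were higher and 17 lower than in MEM in FBS0.1, 8 and 12 in HS, 8 and 11 in DMEM, 5 and 18 in RPMI-1640, and 4 and 16 in Con50. As shares, these were 10.3% higher and 43.6% lower in FBS0.1, 20.5% and 30.8% in HS, and 20.5% and 28.2% in DMEM. RPMI-1640 had 12.8% and 46.2%, and Con50 10.3% and 41.0%. These shares, and the counts of the other complexes below, are to be read beside the probes above background. Of those, 24.4% to 27.7% were higher and 22% to 26% lower over the 5 comparisons with MEM. NDUFB9, an accessory subunit of the membrane arm, had the widest range of condition means among the 89 genes (2.20). Its signal was 11.52 and 11.38 in FBS0.1, 10.93 and 11.53 in HS, 10.90 and 10.75 in DMEM, 11.43 and 11.01 in RPMI-1640 and 11.45 and 11.14 in Con50, against 9.09 and 9.42 in MEM. Every array outside MEM was thus above both MEM arrays by more than any of them differed from each other. The difference was 2.20 in FBS0.1, or 4.59-fold (standard error 0.18, adjusted p = 1.57e-07), 1.98 in HS, 1.57 in DMEM, 1.97 in RPMI-1640 and 2.04 in Con50. Among the 5 conditions other than MEM, its means spanned 0.63.

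NDUFAB1, the mitochondrial acyl carrier protein, which also serves fatty acid synthesis, showed the same direction. It was at 11.88 and 12.18 in FBS0.1, 11.68 and 11.76 in HS, 11.54 and 11.63 in DMEM, 11.73 and 12.09 in RPMI-1640 and 12.07 and 12.13 in Con50, against 10.67 and 10.96 in MEM. The differences were between 0.78 in DMEM (adjusted p = 3.53e-04) and 1.29 in Con50 (adjusted p = 2.35e-06), and the groups did not overlap in any of the 5 comparisons. NDUFB5, another accessory subunit, was 1.16 higher in FBS0.1 (standard error 0.11, adjusted p = 4.44e-07), with 12.64 and 12.76 against 11.59 and 11.50 in MEM, and 0.40 to 0.73 higher in the other 4 conditions. NDUFB2 was higher in all 5, by 0.54 in FBS0.1 to 0.96 in DMEM. NDUFV1, which binds the flavin that takes electrons from NADH, rose by 0.59 in HS, 0.67 in DMEM and 0.50 in RPMI-1640, and NDUFB11 rose by 0.36 in HS and 0.70 in DMEM.

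More genes of complex I were lower than in MEM. NDUFA11, an accessory subunit of the membrane arm, was at 11.09 and 11.02 in FBS0.1, 11.57 and 11.54 in HS, 11.61 and 11.71 in DMEM, 11.49 and 11.41 in RPMI-1640 and 11.56 and 11.07 in Con50, against 12.56 and 12.60 in MEM. It fell by 1.52 in FBS0.1 (standard error 0.13, adjusted p = 1.60e-07), 1.02 in HS, 0.92 in DMEM, 1.12 in RPMI-1640 and 1.26 in Con50. NDUFA3 was at 9.85 and 9.90 in FBS0.1, 9.99 and 10.31 in HS, 10.18 and 10.18 in DMEM, 9.62 and 9.80 in RPMI-1640 and 9.78 and 9.58 in Con50, against 11.06 and 11.26 in MEM. No array of another condition reached a MEM array for either gene. NDUFA3 fell by 1.48 in Con50 (adjusted p = 1.96e-07), 1.45 in RPMI-1640, 1.28 in FBS0.1, 1.01 in HS and 0.98 in DMEM. NDUFS1, the largest iron-sulfur subunit of the matrix arm, fell most in DMEM (-1.09, adjusted p = 2.13e-06) and HS (-1.03, adjusted p = 3.88e-06) and least in FBS0.1 (-0.36). Its signal was 7.70 and 7.91 in FBS0.1, 7.07 and 7.21 in HS and 7.17 and 6.98 in DMEM, against 8.24 and 8.09 in MEM, so that in HS and DMEM it lay close to background, above it on 1 of the 2 DMEM arrays. NDUFV2 and NDUFS3, both of the matrix arm, were lower in all 5 conditions, NDUFV2 by 0.65 to 0.95 and NDUFS3 by 0.43 to 0.92. NDUFA13, known as GRIM-19 from its part in cell death, fell by 1.08 in FBS0.1, 1.09 in RPMI-1640 and 1.09 in Con50, and by 0.47 in DMEM, while in HS its difference of -0.39 did not pass (adjusted p = 0.0523). NDUFA2 fell by 1.08 in HS (adjusted p = 4.43e-05) and by 0.78 to 0.90 in FBS0.1, RPMI-1640 and Con50. NDUFS8, an iron-sulfur subunit, and NDUFB6 were lower in all 5 conditions, NDUFS8 by 0.33 to 0.65 and NDUFB6 by 0.46 to 1.05.

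Other genes of complex I were called in fewer comparisons or in none. NDUFB7 (range 0.22), NDUFB3 (0.29) and NDUFS5 (0.29) were called in 0 of the 6 comparisons, as were NDUFA10, NDUFA12 and NDUFV3. NDUFA7, NDUFA9 and NDUFB8 fell in FBS0.1, RPMI-1640 and Con50, by 0.40 to 0.61, and NDUFA6 in FBS0.1, HS and RPMI-1640, by 0.52 to 0.66. NDUFS4 fell in all but FBS0.1, by 0.41 to 0.61, while NDUFB10 rose by 0.41 in HS and NDUFA1 by 0.52 in DMEM. NDUFC2 was above background on the MEM arrays alone, at 7.09 and 7.19, and was at least 1.12-fold to 1.16-fold lower in the 5 other conditions. NDUFS6 and NDUFA4L2 were above background on 0 of 12 arrays, and NDUFA5 and NDUFB4 on 1. NDUFA4 carries a complex I name but is now counted as a subunit of complex IV. It was at 11.02 and 11.06 in DMEM, against 11.53 and 11.72 in MEM, and fell by 0.58 in DMEM alone of the 5 comparisons. Over the 5 conditions without MEM, the F test called 17 of the 39 genes (43.6%), beside 52.2% of the probes above background.

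**Figure D3:**
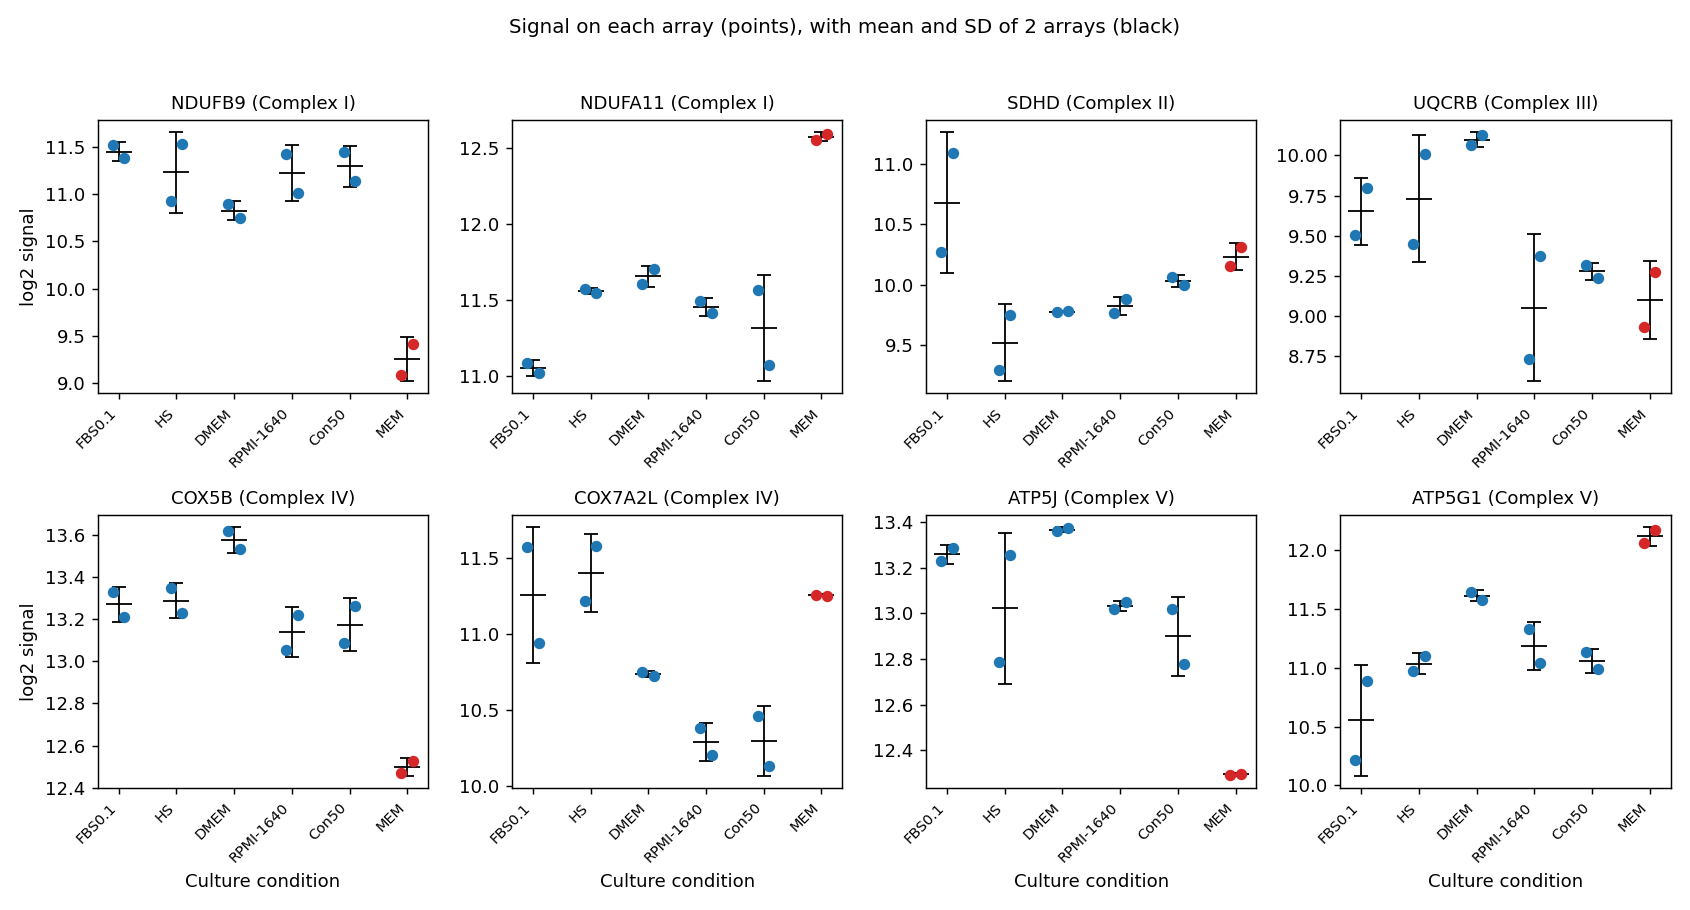
Log2 signal of 8 genes on each of the 12 arrays, with 2 points per condition, the black bar and whiskers giving their mean and SD (n = 2), and MEM in red at the right. The MEM arrays lie below all others for NDUFB9, COX5B and ATP5J and above all others for NDUFA11 and ATP5G1, while SDHD, UQCRB and COX7A2L differ among the other conditions.

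Complex II, the succinate dehydrogenase, has 4 subunits, all encoded in the nucleus, and it is also an enzyme of the citric acid cycle. SDHB, its iron-sulfur subunit, was at 12.26 and 12.06 in FBS0.1, 12.02 and 12.20 in HS, 12.29 and 12.30 in DMEM, a mean of 11.99 in RPMI-1640 (SD 0.02, n = 2) and 12.02 and 11.81 in Con50, against 11.76 and 11.68 in MEM. It was called higher in FBS0.1 (0.44, adjusted p = 0.00522), HS (0.39, adjusted p = 0.0124) and DMEM (0.58, adjusted p = 6.48e-04), and not in RPMI-1640 (0.27) or Con50 (0.19). SDHD, a membrane anchor, had the widest range among the 5 conditions other than MEM (1.16). It was at 10.27 and 11.09 in FBS0.1, 9.30 and 9.75 in HS, 9.78 and 9.78 in DMEM, 9.77 and 9.88 in RPMI-1640 and 10.07 and 10.00 in Con50, against 10.16 and 10.31 in MEM. The FBS0.1 arrays lay 0.82 apart, and 1 of them overlapped the MEM arrays. Against MEM, SDHD fell by 0.71 in HS (adjusted p = 0.0132) and was called in no other condition, and against HS it was 1.16 higher in FBS0.1 (standard error 0.19, adjusted p = 8.92e-04). SDHA, the flavoprotein, followed it in HS, with 9.85 and 9.67 against 10.47 and 10.17 in MEM (difference -0.57, adjusted p = 0.0195). It was called in 0 of the other 4 comparisons with MEM, where its differences were -0.21 to 0.25. A dimmer SDHA probe was called lower in HS as well (-0.89, adjusted p = 2.96e-04), and also in Con50 (-0.96, adjusted p = 1.68e-04) and in FBS0.1 (-0.55, adjusted p = 0.0134), where the brightest probe had the opposite sign. SDHC, the other anchor, fell by 0.56 in Con50 (adjusted p = 0.00764), with 9.90 and 9.47 against 10.29 and 10.20 in MEM, and was called in 0 of the other 4 comparisons with MEM. A dimmer SDHC probe was called lower in all 5, by 0.45 in FBS0.1, 0.70 in HS, 0.69 in DMEM, 0.98 in RPMI-1640 and 0.81 in Con50, so that the calls of SDHA and SDHC depend on the probe. On the brightest probes, the 4 subunits of the 1 enzyme thus did not share a direction in HS, where SDHB was higher and SDHA and SDHD lower. All 4 were called by the F test over 6 conditions and 3 over the 5 without MEM, beside 74.1% and 52.2% of the probes above background.

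Complex III, the cytochrome bc1 complex, was the only one with more higher than lower calls in FBS0.1, HS and DMEM alike. Of its 8 genes, 2 were higher and 1 lower than in MEM in FBS0.1, 3 and 0 in HS, 3 and 0 in DMEM, 1 and 0 in RPMI-1640, and 1 and 1 in Con50. As shares, 25%, 37.5% and 37.5% were higher in FBS0.1, HS and DMEM, and 12.5%, 0% and 0% lower. Of the probes above background, 27.7%, 26.6% and 25.6% were higher and 26%, 25.4% and 23.9% lower. The higher genes in FBS0.1 and HS include UQCRHL, whose values are uncertain, as described below. UQCRB, a small subunit that binds ubiquinone, was at 9.50 and 9.80 in FBS0.1, 9.45 and 10.01 in HS, 10.06 and 10.13 in DMEM, 8.73 and 9.38 in RPMI-1640 and 9.32 and 9.24 in Con50, against 8.93 and 9.27 in MEM. The DMEM arrays were above the arrays of every other condition and were 0.07 apart, while the RPMI-1640 arrays were 0.64 apart. The difference from MEM was 0.99 in DMEM (standard error 0.20, adjusted p = 0.00124) and 0.63 in HS (adjusted p = 0.0298). UQCRH, the hinge protein that helps cytochrome c dock, was at 12.96 and 13.08 in FBS0.1, 13.50 and 13.54 in HS, 13.49 and 13.39 in DMEM, 12.51 and 12.88 in RPMI-1640 and 12.86 and 12.75 in Con50, against 12.62 and 12.85 in MEM. On this probe HS and DMEM formed the upper group, and no array of another condition reached them. It rose by 0.79 in HS (adjusted p = 1.27e-04) and 0.70 in DMEM (adjusted p = 3.82e-04). A dimmer UQCRH probe was called higher in HS too (0.67, adjusted p = 0.00142), but not in DMEM (0.30, adjusted p = 0.156), and it was called higher in FBS0.1 (0.83, adjusted p = 1.66e-04) and Con50 (0.58, adjusted p = 0.0048), where the brightest was not. UQCRHL, a near-identical copy of UQCRH, was higher by 0.79 in FBS0.1 (adjusted p = 5.58e-04), 0.49 in HS, 0.44 in RPMI-1640 and 0.48 in Con50, but not in DMEM (0.25). Values of this pair are uncertain, since a probe may take up both transcripts. UQCRQ, a small membrane subunit, rose by 0.41 in DMEM, and UQCRC1, a core protein, fell by 0.51 in Con50. UQCRC2, the other core protein, rose by 0.59 in FBS0.1, and UQCRFS1, the Rieske iron-sulfur protein, fell by 0.55 in FBS0.1, with 11.36 and 11.67 against 12.11 and 12.03 in MEM. The F test called all 8 genes over 6 conditions and 7 over the 5 without MEM, beside 74.1% and 52.2% of the probes above background.

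Complex IV, the cytochrome c oxidase, has tissue-specific isoforms for several subunits. The forms known from muscle, lung or testis, COX4I2, COX6B2, COX7A1, COX7B2 and COX8C, were above background on 0 of 12 arrays, and COX6A2, the muscle form, on 1. Their ubiquitous counterparts COX4I1, COX6A1, COX6B1, COX7A2, COX7B and COX8A were above background on all 12. Of the 17 genes, 4 were higher and 2 lower than in MEM in FBS0.1, 2 and 2 in HS, 4 and 2 in DMEM, 2 and 4 in RPMI-1640, and 1 and 5 in Con50. COX5B, an accessory subunit that binds zinc, was at 13.33 and 13.21 in FBS0.1, 13.35 and 13.23 in HS, 13.62 and 13.54 in DMEM, 13.06 and 13.22 in RPMI-1640 and 13.09 and 13.26 in Con50, against 12.47 and 12.53 in MEM. It rose by 1.08 in DMEM, or 2.11-fold (standard error 0.10, adjusted p = 8.29e-07), and by 0.64 to 0.79 in the other 4 conditions. COX7A2 rose by 0.34 to 0.62 in all but Con50, where its difference of 0.32 did not pass, and COX6C rose by 0.75 in FBS0.1 and 0.61 in DMEM.

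The lower genes of complex IV were COX7C, COX6A1, COX7A2L, COX6B1 and COX4I1. COX7C was at 12.87 and 13.07 in FBS0.1, 12.88 and 13.11 in HS, 13.06 and 12.92 in DMEM, 12.27 and 12.49 in RPMI-1640 and 12.43 and 12.37 in Con50, against 13.29 and 13.36 in MEM. The RPMI-1640 and Con50 arrays were below every other array, and the difference from MEM was -0.94 in RPMI-1640 (adjusted p = 1.27e-05) and -0.92 in Con50 (adjusted p = 1.42e-05). COX6A1 was lower by 0.90 in Con50 (adjusted p = 2.60e-06) and 0.70 in RPMI-1640, and by 0.31 to 0.36 in the other 3 conditions. COX7A2L, known to join complexes III and IV into supercomplexes, was at 11.57 and 10.94 in FBS0.1, 11.22 and 11.58 in HS, 10.75 and 10.72 in DMEM, 10.38 and 10.20 in RPMI-1640 and 10.46 and 10.13 in Con50, against 11.26 and 11.25 in MEM. It fell by 0.96 in RPMI-1640, 0.96 in Con50 and 0.52 in DMEM, and its differences of 0.00 in FBS0.1 and 0.14 in HS did not pass. Between 2 conditions other than MEM, COX7A2L was 1.11 higher in HS than in RPMI-1640 (adjusted p = 7.70e-04). COX5A was called in 0 of the 6 comparisons, with 12 values between 12.40 and 12.73, while COX6B1 fell by 0.51 in RPMI-1640 and 0.46 in Con50. COX4I1, the main form of the subunit next to the catalytic core, fell by 0.36 in Con50 alone of the 5 comparisons with MEM.

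Complex V, the ATP synthase, divided among its parts. Of its 15 genes, 5 were higher and 5 lower than in MEM in FBS0.1, 3 and 5 in HS, 4 and 2 in DMEM, 5 and 5 in RPMI-1640, and 3 and 6 in Con50. ATP5J, coupling factor 6 of the peripheral stalk, was at 13.23 and 13.29 in FBS0.1, 12.79 and 13.25 in HS, 13.36 and 13.37 in DMEM, 13.02 and 13.05 in RPMI-1640 and 13.02 and 12.78 in Con50, against 12.29 and 12.30 in MEM. It rose by 1.07 in DMEM (standard error 0.13, adjusted p = 1.05e-05), 0.96 in FBS0.1, 0.74 in RPMI-1640, 0.73 in HS and 0.61 in Con50. ATP5O, another stalk subunit, rose by 0.41 to 0.83, and ATP5I, subunit e of the membrane part, by 0.62 to 0.82 over the 5 conditions. Other stalk subunits did not share this direction. ATP5F1, subunit b, fell by 0.37 to 0.49 in all but DMEM on its brightest probe. Another ATP5F1 probe was called lower in HS alone (-0.38, adjusted p = 0.0251), with 0.07 in FBS0.1, -0.11 in RPMI-1640 and -0.05 in Con50. ATP5H, subunit d, fell by 0.42 in Con50. Of the catalytic head, ATP5A1 rose in FBS0.1 (0.66), RPMI-1640 (0.55) and DMEM (0.44), while ATP5B, the catalytic subunit, kept between 13.55 and 13.98 on all 12 arrays and was called in RPMI-1640 alone (0.33). ATP5C1, the rotating shaft, rose by 0.82 in FBS0.1 (adjusted p = 5.26e-04), with 11.23 and 11.49 against 10.46 and 10.63 in MEM, and ATP5D, which sits on the shaft, fell there by 0.77 (adjusted p = 2.49e-04). A dimmer ATP5D probe was called lower in DMEM (-0.60), RPMI-1640 (-0.91) and Con50 (-0.93) besides, where the brightest was not. ATP5L, subunit g of the membrane part, fell by 0.77 in FBS0.1, 0.68 in Con50 and 0.63 in RPMI-1640, and a dimmer ATP5L probe was called lower in HS (-1.80) and DMEM (-1.66) as well, while ATP5E and ATP5J2 were called in 0 of the 6 comparisons.

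ATP5G1, ATP5G2 and ATP5G3 encode the same mature subunit c, which forms the proton-driven ring. ATP5G1 was at 10.22 and 10.89 in FBS0.1, 10.97 and 11.10 in HS, 11.64 and 11.58 in DMEM, 11.32 and 11.04 in RPMI-1640 and 11.13 and 10.98 in Con50, against 12.06 and 12.17 in MEM. It fell by 1.56 in FBS0.1, or 2.95-fold (standard error 0.16, adjusted p = 1.92e-06), and by 0.50 to 1.08 in the other 4 conditions. Another, dimmer ATP5G1 probe went the other way, with differences of 0.52 in HS (adjusted p = 0.0208) and 0.53 in DMEM (adjusted p = 0.0206), and it was not called in the other 3. The direction of ATP5G1 in HS and DMEM therefore depends on the probe, and with the mean of both probes its difference in DMEM was 0.012. ATP5G2 was at 11.43 and 11.36 in FBS0.1, 11.56 and 11.62 in HS, 11.56 and 11.63 in DMEM, 11.35 and 10.99 in RPMI-1640 and 11.13 and 10.73 in Con50, against 12.22 and 12.19 in MEM. It fell by 1.28 in Con50 (adjusted p = 2.30e-06), 1.03 in RPMI-1640, 0.81 in FBS0.1, and 0.61 in HS and 0.61 in DMEM. ATP5G3, at 6.84 and 7.12 in HS and 7.91 and 7.76 in MEM, was called lower in HS (-0.85), Con50 (-0.56) and RPMI-1640 (-0.60). It was above background on 1 of the 2 HS arrays, so its difference there may be understated.

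The 3 assembly factors of complex I went different ways. NDUFAF2 was lower than in MEM in all 5 conditions, by 0.50 in FBS0.1 to 1.24 in RPMI-1640, where it was at 9.42 and 9.52, against 10.65 and 10.77 in MEM (adjusted p = 7.92e-06). NDUFAF3 was higher in HS (0.65, adjusted p = 1.50e-04), DMEM (0.44) and RPMI-1640 (0.44), and NDUFAF1 lower in FBS0.1 (-0.49), RPMI-1640 (-0.35) and Con50 (-0.41). The 3 genes that only share a prefix are ATP5S, ATP5SL and COX4NB. COX4NB, now called EMC8, encodes a subunit of a complex that inserts proteins into the endoplasmic reticulum, and 150 bases lie between its start and that of COX4I1 on chromosome 16. COX4NB was at 7.31 and 7.11 in FBS0.1, 7.47 and 7.55 in HS, 7.61 and 7.47 in DMEM, 7.21 and 7.30 in RPMI-1640 and 7.85 and 7.37 in Con50, against 8.71 and 8.73 in MEM. It fell by 1.51 in FBS0.1 (adjusted p = 2.61e-07) and by 1.11 to 1.46 in the other 4 conditions, where COX4I1 differed by -0.36 to -0.04. The 2 genes beside the printed COX4I1 sequence thus did not move by like amounts. ATP5SL, whose product takes part in the assembly of complex I, fell by 0.82 in DMEM to 1.19 in FBS0.1 (adjusted p = 1.02e-07), and ATP5S was called in 0 of the 6 comparisons on its brightest probe.

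DMEM and RPMI-1640 were compared with each other without use of the MEM arrays' means. Here 15 of the 89 genes (16.9%) were higher and 0 lower in DMEM, while 2.35% of all probes were higher and 2.98% lower, and 6.22% and 7.84% of those above background. At an unadjusted p under 0.05 in limma, 36 genes were higher and 7 lower, and the methods' t-test at P under 0.001 called 1 higher and 0 lower. The shares of probes just given are for the adjusted threshold, and shares at these other thresholds were not counted. The difference was above 0 for 68 of the 89 genes (76.4%), against 50.7% of the probes above background, and its median was 0.22, against 0.00 for those probes. Complex III had 4 of its 8 genes called higher, complex I 7 of 39, complex IV 3 of 17, complex V 1 of 15 and complex II 0 of 4. Of the 10 melanocyte lineage genes, 0 were called in either direction here, with summed signals of 5077 to 5626 in DMEM and 4670 to 4688 in RPMI-1640, while of the 6 genes known from MDA-MB-231, 0 were higher and 4 lower in DMEM, and their part in the result was not tested.

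UQCRB of complex III had the largest difference, 1.04, or 2.06-fold (standard error 0.20, adjusted p = 0.00489), with 10.06 and 10.13 in DMEM against 8.73 and 9.38 in RPMI-1640. UQCRH followed with 0.74 (standard error 0.12, adjusted p = 0.00189), though a dimmer UQCRH probe had a difference of -0.10 (adjusted p = 0.819). UQCR, now UQCR11, was at 8.18 and 8.49 in DMEM and 7.79 and 7.69 in RPMI-1640, and UQCRQ was at 12.98 and 13.10 in DMEM and 12.46 and 12.72 in RPMI-1640. In all 4 of these genes the lower DMEM array was above the higher RPMI-1640 array. The same held for 52 of the 89 genes in this pair, and 11 had both DMEM arrays below both RPMI-1640 arrays. The 4 genes had been chosen as called higher, and the share over all probes was not counted. The larger proteins of complex III, UQCRC1 (0.35), UQCRC2 (-0.14) and UQCRFS1 (0.18), did not pass.

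In complex I, NDUFS7, an iron-sulfur subunit next to the ubiquinone site, was at 10.77 and 10.80 in DMEM and 10.15 and 10.15 in RPMI-1640, a difference of 0.64 (standard error 0.10, adjusted p = 0.00118). The other 6 were accessory subunits, NDUFA13 (0.62), NDUFB6 (0.52), NDUFA8 (0.50), NDUFA3 (0.47), NDUFC1 (0.46) and NDUFB1 (0.45). NDUFA13 was at 10.20 and 10.15 in DMEM and 9.51 and 9.60 in RPMI-1640 (adjusted p = 0.0134). In complex IV the called genes were COX7C (0.61, adjusted p = 0.00424), COX5B (0.44, adjusted p = 0.0185) and COX6A1 (0.40, adjusted p = 0.0214), and in complex V it was ATP5L (0.48, adjusted p = 0.0152). The lowest differences were those of NDUFB9 (-0.40, adjusted p = 0.300) and SDHA (-0.39, adjusted p = 0.247). The count of 15 became 4 without DMEM array 1, 4 without DMEM array 2, 4 without RPMI-1640 array 1 and 12 without RPMI-1640 array 2. With limma's trend and robust variance it was 9, and with the replicate numbers as a block 18.

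**Figure D4:**
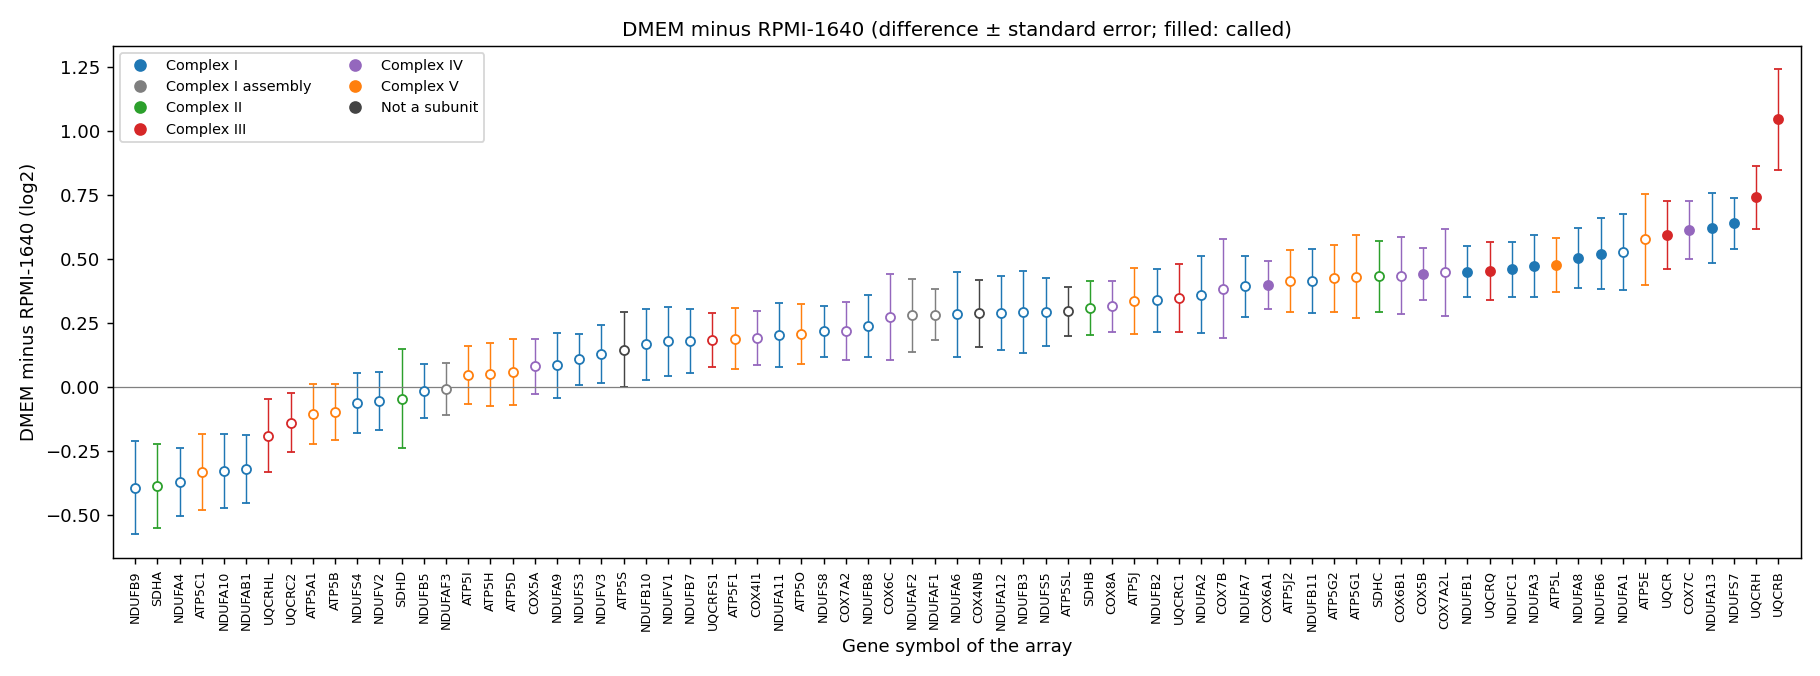
Difference DMEM minus RPMI-1640 on the log2 scale for 75 of the 76 genes above background on all 12 arrays, in ascending order, with bars of 1 standard error either way, colors for complexes and filled circles for called genes. All filled circles lie above 0, from COX6A1 at 0.40 to UQCRB at 1.04.

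Pairs among the 5 conditions other than MEM were tested after the data had been seen. DMEM and HS differed in 3 of the 89 genes, with 1.12% of the 89 higher and 2.25% lower in HS. Of all probes, 2.38% were higher and 2.66% lower in HS, and of those above background 6.16% and 7.08%. In HS, COX7A2L was higher (0.66) and NDUFA2 (-0.66) and UQCRFS1 (-0.42) lower. In HS against RPMI-1640, 12 genes were higher and 1 lower (all probes 3.64% and 4.82%), the higher ones including COX7A2L (1.11), UQCRH (0.82), NDUFA13 (0.70) and UQCRB (0.68), and the lower one being SDHA (-0.75). These were 13.5% and 1.12% of the 89 genes, beside 9.28% and 12.5% of the probes above background. RPMI-1640 and Con50, as given above, differed in none at the adjusted threshold. In these pairs HS and DMEM stood on the side of higher signals, and RPMI-1640 and Con50 on the side of lower ones.

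FBS0.1, the condition with little serum, had calls on both sides. Against DMEM, 11 genes were higher and 19 lower (all probes 6.05% and 5.82%), against HS 9 and 13 (6.03% and 5.52%), and against RPMI-1640 13 and 5 (4.14% and 4.38%). As shares of the 89 genes, these were 12.4% and 21.3%, 10.1% and 14.6%, and 14.6% and 5.62%. Of the probes above background, 15.6% were higher and 15.3% lower against DMEM, 15.3% and 14% against HS, and 11.1% and 11.8% against RPMI-1640. ATP5C1, the shaft of the ATP synthase, was 0.99 higher than in DMEM (adjusted p = 3.28e-04), 0.81 than in HS, 0.66 than in RPMI-1640 and 0.76 than in Con50. Its FBS0.1 arrays, at 11.23 and 11.49, were above the other 10, which lay between 10.24 and 10.78. UQCRC2 and NDUFB5 were likewise higher than in each of these 4 conditions, UQCRC2 by 0.37 to 0.71 and NDUFB5 by 0.43 to 0.76. In the other direction, UQCRFS1 was lower by 0.34 in the comparison with HS to 0.76 in that with DMEM. NDUFB11 was lower than in DMEM (-0.94), HS (-0.61) and RPMI-1640 (-0.53), and ATP5G1 lower than in DMEM (-1.06) and RPMI-1640 (-0.63). COX7B, at 11.46 and 11.75 in FBS0.1, was 0.98 higher than in Con50 (10.40 and 10.85) and 0.96 higher than in RPMI-1640 (10.40 and 10.88).

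Other genes of the pathway were counted in the same fit. In DMEM against RPMI-1640, 2.35% of all probes were higher and 2.98% lower, and 6.22% and 7.84% of those above background. Of 8 further subunits and carriers, 0 were higher and 1 lower in DMEM than in RPMI-1640, and of 34 other assembly factors 2 were higher and 3 lower. The citric acid cycle had 1 higher and 0 lower of 17 genes, glycolysis 3 and 0 of 21, mitochondrial ribosomal proteins 6 and 2 of 76, and cytosolic ribosomal proteins 3 and 4 of 83. Against MEM, glycolysis had 1 gene higher and 11 lower of 21 in FBS0.1, 3 and 7 in HS, 5 and 7 in DMEM, 5 and 4 in RPMI-1640 and 2 and 6 in Con50. Mitochondrial ribosomal proteins had 16 higher and 30 lower of 76 in FBS0.1 and 21 higher and 16 lower in Con50, where the oxidative phosphorylation genes had 9 higher and 33 lower of 89. Over the 5 comparisons with MEM, 24.4% to 27.7% of the probes above background were higher and 22% to 26% lower. ATPIF1, the inhibitor protein of the ATP synthase, was at 9.60 and 9.70 in FBS0.1, 10.56 and 10.43 in HS, 10.52 and 10.49 in DMEM, 10.44 and 10.41 in RPMI-1640 and 10.57 and 10.16 in Con50, against 9.75 and 9.68 in MEM. It rose in all but FBS0.1, by 0.65 to 0.79.

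Of 16 regulators of respiratory genes, 6 were higher and 4 lower than in MEM in FBS0.1, 6 and 3 in HS, 6 and 4 in DMEM, 6 and 4 in RPMI-1640, and 5 and 3 in Con50. Of the 16, 13 had a mean above background. Over the 5 comparisons, 24.4% to 27.7% of the probes above background were higher and 22% to 26% lower. Of all probes, 9.42% to 10.9% were higher and 9.82% to 11.5% lower. PPARGC1A, the coactivator PGC-1α that drives mitochondrial biogenesis, was at 8.73 and 9.01 in FBS0.1, 7.94 and 7.60 in HS, 8.17 and 7.91 in DMEM, 7.53 and 7.58 in RPMI-1640 and 7.32 and 7.14 in Con50, against 7.06 and 7.10 in MEM. It rose by 1.79 in FBS0.1 and 0.96 in DMEM, and was 0.49 higher in DMEM than in RPMI-1640. Its means in HS (7.77), RPMI-1640 (7.55) and Con50 (7.23) were also above that in MEM (7.08). GABPA, whose motif was found in 20 of the 73 promoter windows, rose by 0.34 to 1.21 over the 5 conditions, and ESRRA, the nuclear receptor ERRα, by 0.32 to 0.82. YY1 fell by 0.47 to 1.18 in all 5. TFAM, which packages and transcribes mitochondrial DNA, fell by 0.46 to 0.95 in all but Con50. NRF1 itself was above background on 0 of 12 arrays on the probe read here, so its level was not measured.

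Other probes of the same genes were set beside the brightest one. For 16 of the 89 genes, 18 other probes had a mean above background. Of those whose brightest probe was called, 7 were called the same way and 2 were not called in FBS0.1 minus MEM, 8 were called the same way and 1 the other way in HS, 5 the same way, 1 the other way and 1 not in DMEM, 6 the same way and 2 not in RPMI-1640, and 7 the same way and 2 not in Con50. The probes called the other way were those of ATP5G1. A UQCRB probe with a mean of 6.86, not above background and so not counted here, was also called the other way. Its differences were -0.42 in HS (adjusted p = 0.00587) and -0.32 in DMEM (adjusted p = 0.0332). Where the brightest probe was not called, 17 of 48 other probe readings in the 5 comparisons with MEM were, 4 higher and 13 lower, and 3 of the 17 had the opposite sign to the brightest probe. In DMEM minus RPMI-1640, 2 of 15 such readings were called, both higher, those of ATP5I (0.67) and ATP5J (0.68). The 3 other probes there of genes whose brightest probe was called, those of UQCRH, ATP5L and NDUFB6, had differences of -0.10, 0.14 and 0.45, and 0 of the 3 were called. ATP5J, with 2 further probes, rose on both in all 5 comparisons with MEM, by 1.24 to 1.93 on one and 0.82 to 1.21 on the other.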

How the data were processed

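Probe signals of 12 HumanHT-12 BeadChips, exported from BeadStudio per the labels, were deposited by the authors as log2 values after quantile normalization between arrays, and as linear intensity values. The deposited intensity table, although called raw, was already quantile-normalized, and a repeat moved values by at most 0.025 on the log2 scale. Background correction was not given in the sources used here. All 12 arrays were fitted together with limma 3.58.1 in R 4.3.3 (condition means, empirical Bayes, 6 residual and 8.96 prior degrees of freedom), two-sided, with Benjamini-Hochberg adjustment over 47231 probes. A gene on several probes was read on the one with the highest mean over the arrays (67 of 89 genes have 1 probe), and levels of different probes were not compared. The fit was tested on simulated data. The number of arrays limits the precision.

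The members and lists were chosen with earlier results of these data known. Named in the text were, per complex and comparison, up to 3 called genes with the largest increase and up to 3 with the largest decrease, the brightest gene of each complex, the isoform families, the 4 SDH genes, and the genes with the largest and smallest ranges. The values of 1 gene are not reported here. The remaining genes, and the pairs without MEM, were described after their values were seen. Alternatives were other scalings, tables, probe choices and variance models, the methods' t-test, a replicate block and leaving out each array. Figures were drawn with matplotlib 3.10.9.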

Additional observations from a re-analysis of the deposited data

How the results depend on the processing

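Counts of called genes are given as higher and lower in order. The deposited linear table, the series values, both scalings, the filter on dim probes and 1 probe per symbol left each count within 1.5 times of the value reported. The methods' t-test at P under 0.001 called 2 and 3 genes in FBS0.1 minus MEM, 0 and 1 in HS, 1 and 1 in DMEM, 1 and 3 in RPMI-1640, 0 and 2 in Con50, and 1 and 0 in DMEM minus RPMI-1640. After Benjamini-Hochberg it called 0 and 0 in FBS0.1, 0 and 0 in HS, 1 and 0 in DMEM, 0 and 0 in RPMI-1640, 0 and 1 in Con50, and 0 and 0 in DMEM minus RPMI-1640, each test resting on 2 arrays a group. Asking for a fold of 2 besides left 3 and 6 in FBS0.1, 1 and 6 in HS, 3 and 2 in DMEM, 2 and 7 in RPMI-1640, 2 and 8 in Con50, and 1 and 0 in DMEM minus RPMI-1640. With Con50 in place of MEM, 2 genes were lower in FBS0.1, 0 in HS, 1 in DMEM and 0 in RPMI-1640, and 0 were higher in RPMI-1640. In DMEM minus RPMI-1640, trend and robust variance left 9 higher, and a fit of the compared conditions alone called 1 lower, and the cause was not tested. Leaving out 1 array gave 14 to 18 higher and 20 to 30 lower in FBS0.1, 12 to 19 and 17 to 26 in HS, 17 to 21 and 10 to 21 in DMEM, 9 to 14 and 23 to 33 in RPMI-1640, 6 to 10 and 23 to 34 in Con50, and 4 to 21 and 0 to 1 in DMEM minus RPMI-1640, where the 1 lower gene came without RPMI-1640 array 2. The F test called 53 to 68 genes over 6 conditions and 29 to 49 over 5. The labels do not say whether same-numbered arrays were handled together. Correlations of their deviations lay between -0.12 and 0.24, with 5 of 15 over 0.1. With the replicate block, 17 and 29 genes were called in FBS0.1, 17 and 24 in HS, 21 and 19 in DMEM, 14 and 32 in RPMI-1640, 10 and 34 in Con50, and 18 and 0 in DMEM minus RPMI-1640, with 68 and 46 in the F tests. Of 131 called values named by rule, 131 kept their direction and call under the block, 121 under trend and robust variance, 119 with the mean of all probes of a symbol, 11 under the methods' t-test at P under 0.001, 2 under it after Benjamini-Hochberg, and 109 to 129 without 1 array. The only reversal was ATP5G1 in DMEM minus MEM, at 0.012 with the mean of its probes. Analyses with neqc or detection p-values were not run, since the tables used hold neither control probes nor detection p-values. Signals near background, as for NDUFS1 in HS and DMEM and ATP5G3 in HS, understate differences.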
